A study of Mus musculus with 12 samples.

Results

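Hox paralog groups 4 and 5 comprise 7 genes in the mouse, *Hoxa4*, *Hoxb4*, *Hoxc4* and *Hoxd4* in group 4 and *Hoxa5*, *Hoxb5* and *Hoxc5* in group 5. They were selected by name, by matching NCBI gene identifiers to mouse symbols, and form 7 of the 39 Hox genes and 7 of the 45777 gene identifiers in the tables. Total RNA was sequenced from ventral spinal cord of E12.5 mouse embryos at the brachial (forelimb) and the lumbar (hindlimb) level, trimmed around an Hb9::GFP reporter that labels motor neurons (MNs). At each level 3 libraries came from *Isl2* heterozygotes (*Isl2* +/-), which served as controls, and 3 from *Isl2* KO (*Isl2* -/-) embryos, so each level had 6 libraries and none was wild type. Every library therefore carried at least 1 null allele of *Isl2*, a LIM homeodomain factor of postmitotic MNs, and the reporter. The tissue is a dissected mixture of cells, in which fewer cells of a type and less RNA per cell cannot be told apart.

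Hox genes lie in 4 clusters on different chromosomes, and their order along a cluster follows the order in which they are transcribed along the body axis. Genes of groups 4 and 5 have anterior limits in the hindbrain and cervical cord and reach caudally into the trunk, whereas genes of groups 9 to 11 mark thoracic and lumbar cord. *Hoxa5* and *Hoxc5* are required in MNs of the phrenic column, which drive the diaphragm, and Hox proteins select MN columns and pools together with cofactors of the Meis and Pbx families. Retinoic acid and Cdx factors set Hox domains in the embryo, and Polycomb complexes keep them silent outside these domains.

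The homeobox is the coding stretch for the DNA-binding domain and is the part of these genes that paralogs share most. It was compared among 5 of the genes, and is shown for *Hoxc4* and *Hoxa5*, whose levels separated brachial from lumbar libraries, with capitals at the positions that differ among *Hoxa4*, *Hoxb4* and *Hoxc4* or between *Hoxa5* and *Hoxb5*. Each lies in 1 exon, the last of the transcript, and was read from GENCODE transcripts on GRCm38 (mm10), on the strand of the gene.
Hoxc4 homeobox, chr15:103035663-103035842, plus strand: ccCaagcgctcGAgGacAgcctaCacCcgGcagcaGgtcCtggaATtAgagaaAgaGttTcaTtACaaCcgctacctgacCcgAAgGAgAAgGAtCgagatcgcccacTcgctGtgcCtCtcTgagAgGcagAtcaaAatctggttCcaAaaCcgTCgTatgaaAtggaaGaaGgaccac
Hoxa5 homeobox, chr6:52202632-52202811, minus strand: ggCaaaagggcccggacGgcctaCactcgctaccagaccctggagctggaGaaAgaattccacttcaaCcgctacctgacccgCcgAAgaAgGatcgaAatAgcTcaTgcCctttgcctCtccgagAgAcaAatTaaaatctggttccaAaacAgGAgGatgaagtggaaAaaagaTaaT
Within a paralog group, the homeoboxes of 180 bases were identical at 78.9% to 83.9% of positions over 4 pairs, and between the groups at 71.1% to 81.7% over 6 pairs. The longest stretch without a difference was 26 bases within a group (*Hoxa5* and *Hoxb5*) and 20 bases between the groups. The part of any read that such a stretch leaves ambiguous between paralogs was not measured.

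Levels are given as TPM (transcript abundance scaled to gene length and to a fixed total) after division by a size factor that puts the 12 libraries on 1 scale, so that genes can be compared with one another within a library. Aligned sequence per library ran from 4.48 to 6.64 Gb, 22983 to 24191 genes were above 0, and 5 small RNAs alone held 23.7% to 38.2% of the deposited TPM. *Isl2* averaged 8.89 ± 0.71 TPM in heterozygotes and 5.91 ± 1.40 TPM in KO at the brachial level, and 9.36 ± 0.94 and 7.34 ± 0.85 TPM at the lumbar level (SD, n = 3 each). The KO libraries lay below the heterozygote libraries at both levels, and the residual level covers the whole gene, parts outside the disrupted sequence included. All 8 markers of MNs and all 6 pan-neuronal markers were present, the summed level of 5 sensory ganglion markers was 0.651 to 1.80 TPM with 2 of the 5 at 0 in every library, and that of 6 skeletal muscle markers was 0.727 to 2.01 TPM with 1 at 0.

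At the brachial level *Hoxa5* was the most abundant of the 7 genes. It averaged 69.6 ± 4.85 TPM (SD, n = 6), followed by *Hoxd4* at 55.0 ± 2.79 and *Hoxc4* at 49.0 ± 2.67 TPM. *Hoxc5* was next at 36.2 ± 3.2 TPM, then *Hoxb4* at 15.7 ± 1.84, *Hoxa4* at 10.5 ± 1.29 and *Hoxb5* at 6.97 ± 1.72 TPM. Neighbours in this order were separated in their ranges except *Hoxd4* and *Hoxc4*, and *Hoxa4* and *Hoxb5*, whose ranges overlapped, although *Hoxd4* exceeded *Hoxc4* in 6 of 6 libraries and *Hoxa4* exceeded *Hoxb5* in 5 of 6. *Hoxa5* stood at percentile 89.0 of all tested genes by brachial mean and *Hoxb5* at percentile 39.8.

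The order at the lumbar level was different. *Hoxd4* led with 89.9 ± 6.97 TPM (SD, n = 6), and *Hoxa5* followed with 33.4 ± 3.67 TPM. The remaining 5 genes lay closer together, *Hoxc4* at 22.7 ± 2.58 TPM, *Hoxb4* at 17.1 ± 2.68, *Hoxc5* at 11.6 ± 2.09, *Hoxb5* at 8.67 ± 1.10 and *Hoxa4* at 7.98 ± 1.66 TPM, and each overlapped in range with the next. Within libraries, *Hoxc4* exceeded *Hoxb4*, *Hoxb4* exceeded *Hoxc5* and *Hoxc5* exceeded *Hoxb5* in 6 of 6, and *Hoxb5* exceeded *Hoxa4* in 3 of 6. All 7 genes had a mean above the filter of 0.5 TPM at both levels and entered every test.

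**Figure D1:**
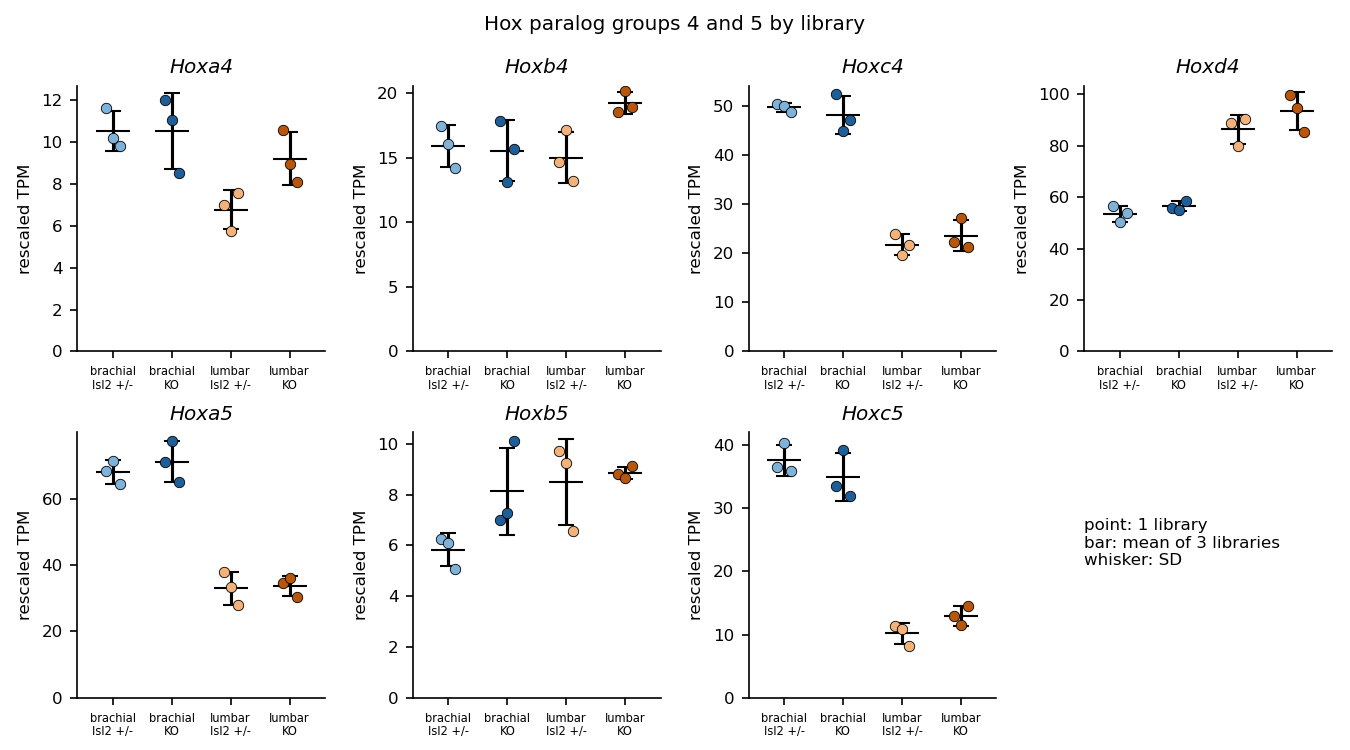
Rescaled TPM of each gene (y axis, from 0) in the 4 groups (x axis). Points are libraries, horizontal bars are means of 3 libraries and whiskers are SD. *Hoxc4*, *Hoxa5* and *Hoxc5* sit lower and *Hoxd4* sits higher in every lumbar library than in any brachial library, while *Hoxb4* and *Hoxb5* overlap.

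The comparison of lumbar with brachial cord asks how these genes differ along the body axis, with genotype as a covariate over the 12 libraries. Of the 7 genes, 4 were lower at the lumbar level (*Hoxa4*, *Hoxc4*, *Hoxa5* and *Hoxc5*), 1 was higher (*Hoxd4*) and 2 were not called (*Hoxb4* and *Hoxb5*), at a Benjamini-Hochberg adjusted p under 0.05 in limma over 16698 genes. Of all tested genes, 18.5% were called, 9.62% as lower and 8.91% as higher. The median log2 difference was -0.41 over the 7 genes and 0.01 over all tested genes. By cluster, both HoxA and both HoxC genes were lower, neither HoxB gene was called and the HoxD gene was higher. Log2 differences are on the scale of log2(rescaled TPM + 0.1), which slightly understates changes of low genes.

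**Figure D2:**
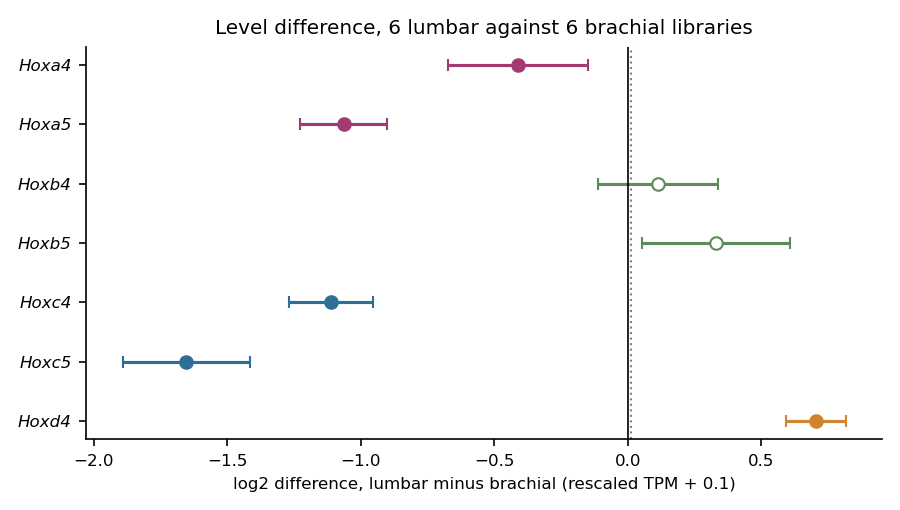
Log2 difference between 6 lumbar and 6 brachial libraries (x axis) for each gene (y axis), with 95% confidence intervals from limma. Filled points passed an adjusted p of 0.05, colours are clusters and the dotted line is the median of all tested genes at 0.01. *Hoxc5* lies furthest below 0 at -1.65 and *Hoxd4* is the only point called above 0, at 0.70.

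*Hoxc5* showed the largest difference of the 7. In brachial libraries it was at 36.5, 40.4 and 35.8 TPM in heterozygotes and at 33.6, 39.1 and 32.0 TPM in KO. In lumbar libraries it was at 11.4, 10.9 and 8.24 TPM in heterozygotes and at 12.9, 11.5 and 14.5 TPM in KO. Every lumbar library lay below every brachial library, and the lumbar mean was 32.0% of the brachial mean. The log2 difference was -1.65 (SE 0.11, 95% interval -1.89 to -1.41, adjusted p = 1.45e-06, limma).

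*Hoxc4*, its neighbour in the HoxC cluster, changed in the same direction. Brachial values were 50.6, 50.1 and 48.8 TPM in heterozygotes and 52.5, 45.0 and 47.2 TPM in KO. Lumbar values were 23.96, 19.8 and 21.7 TPM in heterozygotes and 22.3, 27.2 and 21.4 TPM in KO. The groups did not overlap, with a log2 difference of -1.11 (SE 0.07, 95% interval -1.27 to -0.96, adjusted p = 1.34e-06, limma). The interval of *Hoxc4* does not reach that of *Hoxc5*, and the ratio of *Hoxc5* to *Hoxc4* within a library was 0.639 to 0.870 in brachial and 0.379 to 0.679 in lumbar libraries, ranges that overlapped slightly.

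*Hoxa5*, which has well known roles in the lung, the respiratory motor system and the cervical skeleton, was at 68.5, 71.4 and 64.4 TPM in brachial heterozygotes and at 71.1, 77.4 and 64.9 TPM in brachial KO. At the lumbar level it was at 37.8, 33.3 and 27.9 TPM in heterozygotes and at 34.7, 36.1 and 30.4 TPM in KO. The highest lumbar library was thus far below the lowest brachial library. The log2 difference was -1.06 (SE 0.08, 95% interval -1.23 to -0.90, adjusted p = 2.42e-06, limma), which lies within the interval of *Hoxc4*.

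*Hoxd4*, a gene whose hindbrain border depends on retinoic acid, went the other way. It was at 56.5, 50.3 and 53.9 TPM in brachial heterozygotes and at 55.6, 55.1 and 58.7 TPM in brachial KO. In lumbar heterozygotes it was at 88.9, 80.0 and 90.4 TPM, and in lumbar KO at 99.8, 94.8 and 85.3 TPM. All 6 lumbar libraries lay above all 6 brachial libraries, the lumbar mean was 163% of the brachial mean, and the log2 difference was 0.70 (SE 0.05, 95% interval 0.59 to 0.82, adjusted p = 3.74e-06, limma). Groups of 6 against 6 did not overlap for these 4 of the 7 genes and for 8.31% of all tested genes.

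*Hoxa4*, a patterning gene of the cervical vertebrae, was called lower but less firmly. Brachial libraries were at 11.6, 10.2 and 9.78 TPM in heterozygotes and at 12.02, 11.1 and 8.52 TPM in KO. Lumbar libraries were at 7.0, 5.75 and 7.56 TPM in heterozygotes and at 10.6, 8.95 and 8.08 TPM in KO. The 3 lumbar heterozygote libraries were the lowest of all, and the lumbar KO libraries reached into the brachial range. The log2 difference was -0.41 (SE 0.12, adjusted p = 0.0335, limma), and the call was lost in 10 of the 12 fits that left out 1 library, at adjusted p from 0.0504 to 0.0768 in those fits.

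Neither HoxB gene was called. *Hoxb4*, known for its action in blood stem cells, ranged from 13.1 to 17.9 TPM at the brachial level (median 15.8) and from 13.2 to 20.2 TPM at the lumbar level (median 17.9), with a log2 difference of 0.11 (95% interval -0.11 to 0.34, adjusted p = 0.490, limma). *Hoxb5*, which acts in the vagal crest that forms the enteric nervous system, ranged from 5.07 to 10.1 TPM (median 6.63) and from 6.56 to 9.70 TPM (median 8.96). Its log2 difference was 0.33 (95% interval 0.06 to 0.61, adjusted p = 0.0906, limma), and without brachial KO replicate 3, the highest brachial library, it was 0.43 and passed the threshold (adjusted p = 0.0180).

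Within a single genotype, where 3 libraries stood against 3, the same 4 genes with separated levels were called in heterozygotes and in KO. The log2 differences in heterozygotes and KO were -1.88 and -1.42 for *Hoxc5*, -1.19 and -1.03 for *Hoxc4*, -1.05 and -1.08 for *Hoxa5*, and 0.69 and 0.72 for *Hoxd4*, with adjusted p of at most 0.0133 (limma). *Hoxa4* was called lower in heterozygotes (-0.63, adjusted p = 0.0471) and not in KO (-0.19, adjusted p = 0.535). Neither HoxB gene was called in either genotype, with *Hoxb5* at 0.52 (adjusted p = 0.142) in heterozygotes and 0.14 (adjusted p = 0.635) in KO, and *Hoxb4* at -0.09 (adjusted p = 0.746) and 0.31 (adjusted p = 0.187). Of all tested genes, 2.94% were called in heterozygotes and 1.77% in KO.

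Summed over the paralog group, the fall of *Hoxc4* and *Hoxa4* and the higher level of *Hoxd4* offset each other in group 4 and not in group 5. The 4 genes of group 4 summed to 130 ± 5.60 TPM in brachial and to 138 ± 11.3 TPM in lumbar libraries (SD, n = 6), whose ranges overlapped. The 3 genes of group 5 summed to 113 ± 6.97 TPM and to 53.6 ± 5.67 TPM, with 105 TPM in the lowest brachial and 58.9 TPM in the highest lumbar library. The lumbar sum was 47.5% of the brachial sum in group 5 and 106% in group 4. These sums were not tested.

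The make-up of group 4 shifted to *Hoxd4*, which made 42.3% ± 2.16 of the group's summed TPM in brachial and 65.3% ± 1.85 in lumbar libraries (SD, n = 6). *Hoxc4* made 37.6% ± 1.33 and 16.5% ± 1.22, and *Hoxb4* made 12.03% ± 0.97 and 12.4% ± 1.72. In group 5, *Hoxa5* held 61.7% ± 1.20 in brachial and 62.3% ± 3.28 in lumbar libraries, whereas *Hoxc5* went from 32.1% ± 1.90 to 21.5% ± 2.90 and *Hoxb5* from 6.21% ± 1.67 to 16.2% ± 0.83. Ranges of the 2 levels did not overlap for *Hoxc4*, *Hoxd4*, *Hoxc5* and *Hoxb5*. The share of *Hoxb5* thus differed although its own level was not called, and the sum of its group was lower.

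**Figure D3:**
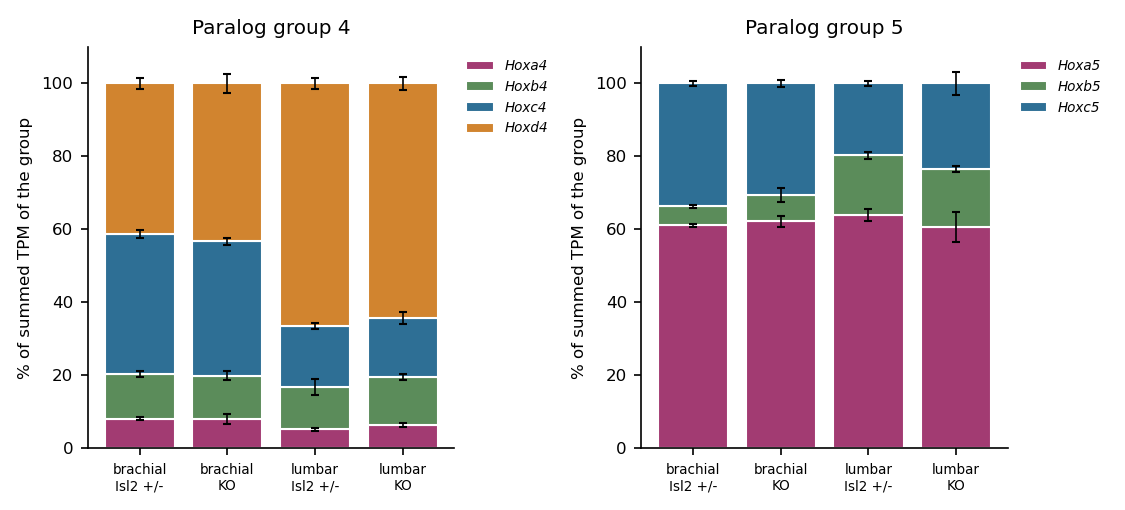
Share of each gene in the summed TPM of paralog group 4 (left) and group 5 (right) in the 4 groups of 3 libraries (x axis). Bars are stacked mean percentages with SD whiskers at the top of each segment, and colours are clusters. *Hoxd4* takes 42.3% of group 4 in brachial and 65.3% in lumbar libraries, and *Hoxa5* holds 61.7% and 62.3% of group 5.

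The other Hox genes were read by cluster. Of the 32 other Hox genes 25 were tested, of which 5 fell and 11 rose from brachial to lumbar cord, against 18.5% of all tested genes called. In HoxA, the 4 tested genes of groups 4 to 7 were all lower, with *Hoxa6* at -0.68 (adjusted p = 3.12e-05) and *Hoxa7* at -0.95 (adjusted p = 2.40e-06) beside *Hoxa4* and *Hoxa5*. In HoxC, all 4 tested genes up to group 8 were lower, from -1.11 at *Hoxc4* through -1.65 at *Hoxc5* and -1.93 at *Hoxc6* to -3.32 at *Hoxc8*. In HoxB, none of 7 tested genes of groups 1 to 8 was called, and their log2 differences ran from -0.40 to 0.38. In HoxD, all 4 tested genes of groups 1 to 8 were higher, from 0.51 to 0.71, with *Hoxd4* at 0.70. With TPM as deposited the HoxA and HoxC counts stayed at 5 and 4 lower of groups 1 to 8, 1 HoxB gene was called lower, and 2 of the 4 HoxD genes, *Hoxd4* among them, were called higher.

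**Figure D4:**
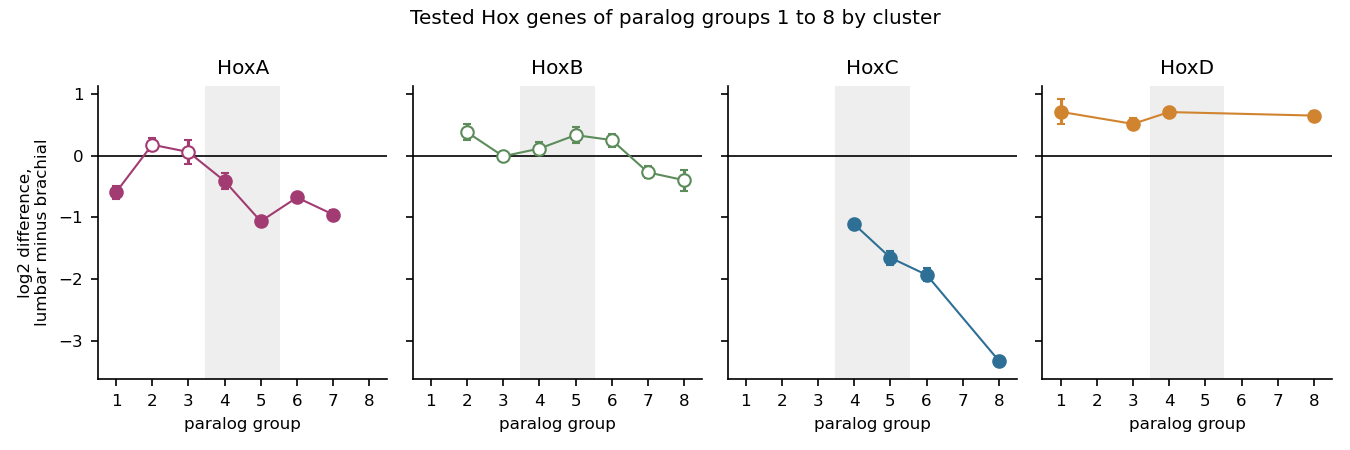
Log2 difference between lumbar and brachial libraries (y axis, SE whiskers) for tested Hox genes of paralog groups 1 to 8 (x axis), by cluster. Filled points passed an adjusted p of 0.05 and the grey band marks groups 4 and 5. Values fall from -1.11 to -3.32 along HoxC, stay within -0.40 to 0.38 in HoxB and lie between 0.51 and 0.71 in HoxD.

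Of the other Hox genes, the 4 of smallest p were *Hoxd10*, *Hoxa11*, *Hoxc10* and *Hoxc8*. *Hoxd10*, a lumbar MN gene, averaged 0.00405 TPM in brachial and 164 TPM in lumbar libraries, and *Hoxa11* and *Hoxc10* were listed at 0 in every brachial library against 18.6 and 34.7 TPM in lumbar ones. *Hoxc8*, a brachial gene, averaged 156 TPM in brachial and 15.6 TPM in lumbar libraries.

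Genes that overlap or lie next to the members were examined because the reads of a transcript in the same span may be assigned to either. *Hoxa4* (chromosome 6, 52189682 to 52191703, minus strand, mm10) and *Hoxa5* (52201754 to 52204587) both lie inside the annotated span of *Hoxa3*, which differed by 0.06 (adjusted p = 0.873). The span of *Hoxa6* lies 271 bases from that of *Hoxa5*. *Hoxd4* (chromosome 2, 74721978 to 74729160) lies inside the span of *Hoxd3*, which was also higher at the lumbar level (0.51, adjusted p = 0.00246). *Hoxb4* (chromosome 11, 96318267 to 96321638) lies inside that of *Hoxb3*, which differed by -0.01. *Hoxc5* (chromosome 15, 103014008 to 103017429) ends 668 bases before *Hoxc4* (103018097 to 103036856) begins, and *Hoxc6* lies 2126 bases from *Hoxc5*.

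Antisense genes covered 4 of the members in part or whole. *Gm30528* overlaps 53.6% of *Hoxc4* on the opposite strand and was lower at the lumbar level (17.4 ± 1.08 against 4.07 ± 1.22 TPM, log2 difference -2.11, adjusted p = 2.51e-06). *LOC115490409* spans *Hoxa4* (-0.77, adjusted p = 0.00283), and *Hoxaas3* spans *Hoxa5* (-0.40, adjusted p = 0.0509). *Hoxb5os* spans *Hoxb5* (96303512 to 96306121 on chromosome 11) and was at 88.7 ± 15.2 TPM in brachial and 55.8 ± 10.5 TPM in lumbar libraries (-0.67, adjusted p = 0.00641), each far above the 6.97 and 8.67 TPM of *Hoxb5* itself. The library kit keeps strand, but whether strand was used in the assembly is not given in the sources used here, so the values of *Hoxa4*, *Hoxc4*, *Hoxa5* and *Hoxb5* may hold reads of these partners.

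*Hoxb4* and *Hoxd4* lie at microRNA genes of one family, shown here with the seed (bases 2 to 8) in capitals as in RefSeq.
mmu-miR-10b-5p, within Hoxd4: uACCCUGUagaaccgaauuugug
mmu-miR-10a-5p, near Hoxb4: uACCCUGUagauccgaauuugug
Both carry the seed ACCCUGU. The precursor gene *Mir10b* lies within *Hoxd4* and *Mir10a* lies 993 bases from *Hoxb4*. *Mir10b* averaged 4.26 ± 2.02 TPM in brachial and 5.47 ± 1.75 TPM in lumbar libraries (log2 difference 0.45, adjusted p = 0.373) and *Mir10a* 2.08 ± 0.80 and 3.39 ± 1.14 TPM (0.72, adjusted p = 0.0525). *Mir615*, in *Hoxc5*, averaged 4.14 ± 0.56 and 2.87 ± 1.60 TPM (-0.66, adjusted p = 0.131). A total RNA library does not measure mature microRNAs, and no call was made for the 3 precursors.

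RefSeq promoter sequence on GRCm38.p6 was at hand for 4 of the 7 genes. The 250 bases before the start are shown for *Hoxd4*, the gene higher at the lumbar level, and for *Hoxc4* and *Hoxa5*, which were lower, with *Hoxb4* as the gene that was not called. Capitals mark matches to AGGTCA, the core site of retinoic acid receptors, and TTTATG, bound by Cdx factors, searched on both strands. The start used for *Hoxc4* lies inside its annotated span.
Hoxd4 promoter, chr2:74721728-74721977, plus strand: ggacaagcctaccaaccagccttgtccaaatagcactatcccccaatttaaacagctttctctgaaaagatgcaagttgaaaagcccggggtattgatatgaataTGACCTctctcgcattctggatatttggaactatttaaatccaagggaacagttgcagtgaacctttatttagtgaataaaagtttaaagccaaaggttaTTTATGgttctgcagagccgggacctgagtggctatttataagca
Hoxc4 promoter, chr15:103034145-103034394, plus strand: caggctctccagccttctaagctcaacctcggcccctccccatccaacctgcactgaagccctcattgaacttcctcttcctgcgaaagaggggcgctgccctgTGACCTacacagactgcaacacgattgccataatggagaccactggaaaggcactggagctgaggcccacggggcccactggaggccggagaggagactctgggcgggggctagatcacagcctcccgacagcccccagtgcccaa
Hoxa5 promoter, chr6:52204588-52204837, minus strand: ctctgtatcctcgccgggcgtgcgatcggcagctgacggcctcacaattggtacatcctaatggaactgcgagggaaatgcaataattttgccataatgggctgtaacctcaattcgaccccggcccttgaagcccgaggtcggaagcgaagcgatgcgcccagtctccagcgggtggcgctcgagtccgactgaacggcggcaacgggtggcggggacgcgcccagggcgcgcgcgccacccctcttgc
Hoxb4 promoter, chr11:96318017-96318266, plus strand: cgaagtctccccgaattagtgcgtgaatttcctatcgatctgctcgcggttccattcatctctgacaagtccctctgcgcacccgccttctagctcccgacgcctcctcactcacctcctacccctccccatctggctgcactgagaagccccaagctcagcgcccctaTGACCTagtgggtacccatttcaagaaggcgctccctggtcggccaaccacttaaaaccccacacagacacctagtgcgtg
AGGTCA was found once in *Hoxd4*, *Hoxc4* and *Hoxb4*, beginning 145, 146 and 81 bases before the start, and not in *Hoxa5*, and 14.0% of 32851 promoters hold it. TTTATG was found only in *Hoxd4* of these 4, 45 bases before the start, and in 10.8% of promoters. TGATNNAT, a joint Pbx and Hox motif (7.68% of promoters), and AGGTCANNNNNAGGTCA, a direct repeat of that site (0.00913%), were found in none of the 4. GC content was 40.4% in *Hoxd4*, 58.0% in *Hoxb4*, 62.0% in *Hoxc4* and 63.6% in *Hoxa5*, against a median of 52.4% over all promoters.

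Genes that act with or upstream of Hox genes were counted by list for the same lumbar against brachial comparison. Of the 9 cofactors of the Meis, Pbx and Pknox families, 0 were lower and 2 were higher, against 18.5% of all tested genes called in either direction. These were *Meis3* (85.3 ± 6.57 against 112 ± 15.7 TPM, log2 difference 0.38, adjusted p = 0.0113) and *Pbx2* (0.31, adjusted p = 0.0179), while *Meis1* (0.13, adjusted p = 0.0511) and *Pknox1* (-0.12, adjusted p = 0.0964) were not called. With TPM as deposited the counts were 1 lower and 0 higher.

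Of 16 listed genes of retinoic acid metabolism and signalling 13 were tested, of which 2 were lower and 4 higher, against 18.5% of all tested genes called. None of the 3 Cdx genes passed the filter on low values. The 4 of smallest p were *Rarb*, *Aldh1a2*, *Crabp2* and *Cyp26b1*. *Rarb*, a receptor that is itself induced by retinoic acid, was at 56.7 ± 7.08 TPM in brachial and 81.5 ± 9.20 TPM in lumbar libraries (0.52, adjusted p = 0.00267). *Aldh1a2*, which makes retinoic acid, was lower, at 111 ± 10.03 TPM in brachial and 80.4 ± 17.2 TPM in lumbar libraries (-0.49, adjusted p = 0.00809). *Crabp2*, which carries retinoic acid to its receptors, was at 197 ± 29.0 and 309 ± 77.1 TPM (0.63, adjusted p = 0.0117). *Cyp26b1*, which degrades retinoic acid, was also lower (1.35 ± 0.42 against 0.676 ± 0.194 TPM, -0.89, adjusted p = 0.0165). With TPM as deposited 2 were lower and 2 higher.

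Of 18 Polycomb and Trithorax regulators, 2 were lower and 4 higher in lumbar cord, against 18.5% of all tested genes called. The 4 of smallest p were the higher ones, the Polycomb subunits *Ring1* (0.25, adjusted p = 0.00871), *Cbx2* (0.32, adjusted p = 0.0138), *Ezh2* (0.24, adjusted p = 0.0203) and *Eed* (0.25, adjusted p = 0.0204). These differences were smaller than those of the 4 separated Hox genes, and with TPM as deposited 1 of the 18 was lower and 0 were higher.

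Of 9 tested factors of brachial and phrenic MNs, 6 were lower and 1 higher in lumbar cord, against 18.5% of all tested genes called. *Etv4*, an ETS factor of limb motor pools, was at 24.5 ± 3.95 TPM in brachial and 8.61 ± 3.98 TPM in lumbar libraries (-1.60, adjusted p = 3.10e-05). These means pool the genotypes. Brachial and lumbar means were 27.9 and 11.6 TPM in heterozygotes and 21.1 and 5.61 TPM in KO. The adhesion molecules *Alcam* (-0.62, adjusted p = 0.000134) and *Pcdh10* (-0.64, adjusted p = 0.00115) were lower, as was *Aldh1a2* (-0.49). The 1 higher factor was *Nkx6-1*, of ventral progenitors and some MNs (0.90, adjusted p = 0.0237), named after its value was seen. With TPM as deposited 8 of 10 tested factors were lower and 0 higher. The summed level of the 10 listed factors was 438 to 497 TPM in brachial and 282 to 350 TPM in lumbar libraries.

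Markers of cell types also moved with level. The summed level of the 8 MN markers was 415 to 502 TPM in brachial and 180 to 308 TPM in lumbar libraries, of which *Prph* (284 against 48.4 TPM) and *Slc5a7* (28.7 against 13.5 TPM) were the 2 called lower, named after their values were seen, and none was called higher. *Prph* carried the fall of the sum, since the other 7 summed to 176 to 195 TPM in brachial and 146 to 232 TPM in lumbar libraries, and the median log2 difference of the 8 was 0.13. By genotype, *Prph* averaged 309 TPM in brachial and 61.7 TPM in lumbar heterozygotes, and 259 and 35.2 TPM in KO. Endothelial markers summed to 61.3 to 83.0 against 49.5 to 62.8 TPM with 4 of 6 lower, and microglial markers to 17.9 to 27.1 against 7.90 to 16.6 TPM with 4 of 6 lower. The 6 pan-neuronal markers summed to 3375 to 3885 against 3205 to 3848 TPM, with 1 lower, and none of 8 blood markers was called. Their part in the level differences of the Hox genes was not tested. In the other types, against 18.5% of all tested genes, calls were made in dorsal cord (1 lower and 1 higher of 8), progenitor and floor plate (1 and 1 of 7), mesenchyme (1 lower of 3 tested) and crest markers (1 and 1 of 5 tested).

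Genes whose profile over the 12 libraries was most like that of a called member were ranked by the root mean square (RMS) difference of log2 values after each gene was centred on its own mean, among the 16691 tested genes that are not members. Nearest to *Hoxa5* were *Vstm2a* (RMS 0.107), *Hoxa7* (0.128) and *Hs6st2* (0.151), and nearest to *Hoxc4* were *Mira* (0.150), *Smug1* (0.164) and *Hoxa7* (0.165). *Hoxa5* and *Hoxc4* differed from each other by an RMS of 0.137, less than *Hoxc4* differed from any gene that is not a member. *Hoxc5* was followed at a greater distance by *Lypd1* (0.238), *Ocln* (0.248) and *Sstr1* (0.256). Nearest to *Hoxd4* were *Recql4* (0.116), *Nrm* (0.137) and *Chaf1a* (0.139), and nearest to *Hoxa4* were *Perm1* (0.131), *2310075K07Rik* (0.143) and *Ppfibp1* (0.151). For *Hoxc5*, *Hoxd4* and *Hoxa4*, 22, 2031 and 6315 genes that are not members were closer than the nearest member. *Perm1* (0.869 and 0.631 TPM in brachial and lumbar libraries), *2310075K07Rik* (0.687 and 0.542) and *Ocln* (0.969 and 0.284) lay near the filter of 0.5 TPM.

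The comparison of *Isl2* KO with heterozygotes asks which genes depend on *Isl2* at each level, and none of the 7 genes passed the threshold at either level (log2 fold change beyond 0.5 and unadjusted p under 0.05). In brachial cord 3.08% and in lumbar cord 1.77% of all tested genes passed it. The brachial calls, 371 higher and 146 lower, moved with single libraries, to 1046 and 336 without KO replicate 1, to 142 and 136 without heterozygote replicate 3, and to 147 and 134 without KO replicate 3. At an adjusted p under 0.05 limma called 1 gene of 16768 in brachial and none of 16620 in lumbar cord, where 2330 (13.9%) and 808 (4.86%) had an unadjusted p under 0.05. With 3 libraries against 3, an exact permutation test of a single gene cannot give a p below 0.1.

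In brachial libraries the genotype differences of 6 genes lay between -0.11 and 0.08 and each had a 95% interval that held 0. Leaving out 1 library moved *Hoxc5* between -0.19 (without KO replicate 2) and -0.05 (without KO replicate 3), *Hoxc4* between -0.11 (without KO replicate 1) and -0.0014 (without KO replicate 2), and *Hoxd4* between 0.03 (without heterozygote replicate 2) and 0.12 (without heterozygote replicate 1). *Hoxb5* was the exception, at 6.27, 6.11 and 5.07 TPM in heterozygotes and at 7.0, 7.29 and 10.1 TPM in KO. All 3 KO libraries lay above the heterozygotes, as was the case, in either direction, for 20.1% of tested genes. The log2 fold change of *Hoxb5* was 0.46 (SE 0.17, 95% interval 0.07 to 0.86, unadjusted p = 0.0272, adjusted p = 0.357, limma), short of the threshold of 0.5. Without brachial heterozygote replicate 1, KO replicate 1 or KO replicate 2 it was 0.52, 0.56 and 0.53 and passed, as it did with TPM as deposited (0.64). Without KO replicate 3 it was 0.30 (unadjusted p = 0.0696) and without heterozygote replicate 3 it was 0.37 (unadjusted p = 0.0933). Its antisense partner *Hoxb5os* differed by -0.18 (adjusted p = 0.609). The library at 10.1 TPM, brachial KO replicate 3, had the least aligned sequence (4.48 Gb), and the MN markers summed to 490 to 502 TPM in brachial heterozygotes and 415 to 466.4 TPM in brachial KO, or 182 to 195 and 176 to 192 TPM without *Prph*. Blood markers summed to 2367 to 3940 TPM in brachial heterozygotes and to 3348 to 6671 TPM in brachial KO, highest in the same KO replicate 3. The part of these in the difference of *Hoxb5* was not tested.

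In lumbar libraries all 7 log2 fold changes were positive, against 47.4% of tested genes, with a median of 0.11 over the 7 genes and -0.01 over all, although *Hoxa5* and *Hoxb5* turned negative without heterozygote replicate 3 (-0.08 and -0.10) and *Hoxa5* without KO replicate 2 (-0.01). *Hoxb4* was at 14.6, 17.2 and 13.2 TPM in heterozygotes and at 18.6, 20.2 and 18.9 TPM in KO, a log2 fold change of 0.36 (SE 0.11, unadjusted p = 0.0117, adjusted p = 0.999, limma). *Hoxa4* had 0.44 (SE 0.15, unadjusted p = 0.0195, adjusted p = 0.999, limma), from 6.77 ± 0.93 to 9.20 ± 1.27 TPM. *Hoxc5* had 0.35 (SE 0.15, unadjusted p = 0.0491, adjusted p = 0.999, limma), from 10.2 ± 1.71 to 12.9 ± 1.52 TPM (SD, n = 3 each). For these 3 genes the KO libraries lay above the heterozygotes without overlap, which held in either direction for 9.94% of tested genes. Without lumbar heterozygote replicate 3 or KO replicate 3, *Hoxa4* passed the threshold, at 0.52 for each, and without heterozygote replicate 2 or KO replicate 1 it was 0.32 (unadjusted p = 0.0754) and 0.33 (unadjusted p = 0.0741). Without heterozygote replicate 3 the difference of *Hoxc5* was 0.20 (unadjusted p = 0.162), and without KO replicate 3 it was 0.27 (unadjusted p = 0.152). *Hoxa3*, whose span holds *Hoxa4* and *Hoxa5*, differed by 0.59 (unadjusted p = 0.00558, adjusted p = 0.998, limma) and passed the threshold. *LOC115490409*, antisense to *Hoxa4*, differed by -0.06 (adjusted p = 0.999, limma). Their part in the difference of *Hoxa4* was not tested.

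The other 4 members differed by 0.04 (*Hoxa5*), 0.08 (*Hoxb5*), 0.11 (*Hoxc4*) and 0.11 (*Hoxd4*) at the lumbar level, with intervals that held 0. *Hoxc4* was at 0.0043 without KO replicate 2 and 0.04 without heterozygote replicate 2, and at most 0.18 in the fits that left out 1 library, while *Hoxd4* ran from 0.06 to 0.17 in them. For *Hoxa5* the interval was -0.25 to 0.32 and for *Hoxd4* -0.08 to 0.30. The summed level of the 8 MN markers was 236 to 308 TPM in lumbar heterozygotes and 180 to 249 TPM in lumbar KO, or 171 to 232 and 146 to 218 TPM without *Prph*, with 1 of 8 lower past the threshold, *Prph*. Blood markers summed to 2381 to 3802 and 3071 to 4882 TPM, with 1 of 8, *Hba-x*, higher. *Prph* and *Hba-x* were named after their values were seen. Their part in the differences of the Hox genes was not tested.

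**Figure D5:**
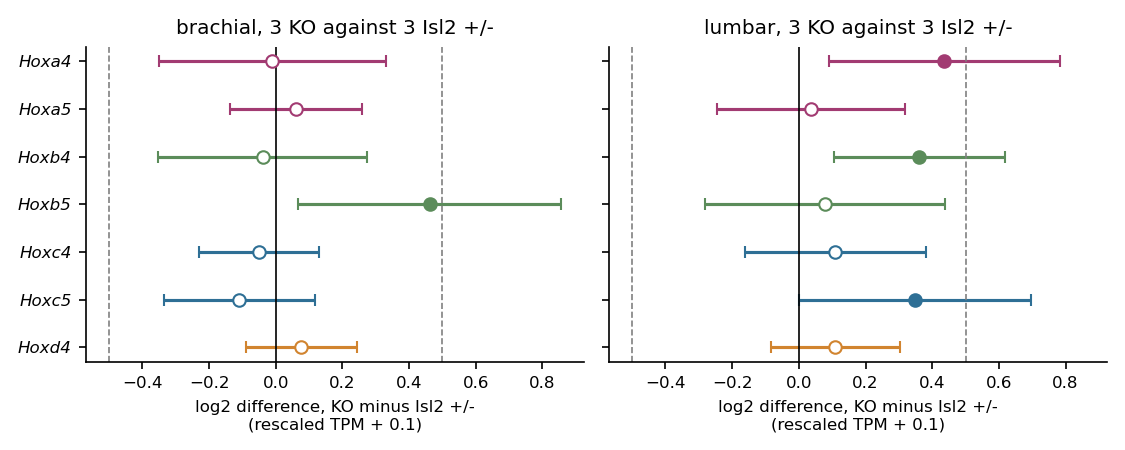
Log2 difference between 3 *Isl2* KO and 3 *Isl2* +/- libraries (x axis) at the brachial (left) and lumbar (right) level for each gene (y axis), with 95% confidence intervals from limma. Filled points mark genes whose genotypes do not overlap, dashed lines the threshold of 0.5. No point lies beyond 0.5, the 1 filled brachial point is *Hoxb5* at 0.46 and the 3 filled lumbar points lie between 0.35 and 0.44.

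Taking both levels in 1 fit with level as a covariate, none of the 7 genes passed the threshold, and the largest log2 fold change was that of *Hoxb5* (0.27, SE 0.13, unadjusted p = 0.0548, adjusted p = 0.361, limma), which ran from 0.18 without brachial KO replicate 3, where *Hoxa4* was larger at 0.30, to 0.34 without lumbar heterozygote replicate 1. Of all tested genes 1.81% passed. This fit and the test between levels treat the 12 libraries as independent, although brachial and lumbar libraries may share embryos. The test of whether the genotype difference itself differed between levels found none of 16698 genes at an adjusted p under 0.05 and 738, or 4.42%, at an unadjusted p under 0.05 (limma). Among the members the largest was that of *Hoxc5* (0.46, 95% interval 0.05 to 0.86, unadjusted p = 0.0305), followed by *Hoxa4* (0.45, unadjusted p = 0.0623) and *Hoxb4* (0.40, unadjusted p = 0.0475), each with an adjusted p of 0.812 (limma). Leaving out 1 library moved these 3 to 0.31 to 0.54, 0.30 to 0.55 and 0.28 to 0.51, ranges that overlap. Other alternatives went down to 0.29, 0.28 and 0.24. *Hoxb5* had the opposite sign (-0.38, 95% interval -0.91 to 0.14), from -0.22 without brachial KO replicate 3 to -0.56 without lumbar heterozygote replicate 3. The genotype differences were smaller than the differences between levels for the 4 genes with separated levels.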

How the data were processed

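Total RNA of E12.5 ventral spinal cord was sequenced in 12 libraries, 3 per level and genotype. Sample titles name the level and cnt or mut, which the study describes as *Isl2* heterozygotes and homozygotes. Per the labels and methods, the authors used a stranded ribosomal depletion kit, FastQC 0.11.7, Trimmomatic 0.38, HISAT2 2.1.0 and Bowtie2 2.3.4.1 on mm10, and StringTie 2.1.3b. The deposited TPM values are the authors' StringTie output, scaled to gene length and to a fixed total per library. The deposited FPKM values and the deposited coverage signal come from the same StringTie output. No counts were used, so the DESeq2 comparison of the authors could not be repeated.

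Symbols came from RefSeq (GRCm38.p6) for 45679 of 45777 identifiers, and repeated lines of an identifier were summed. TPM was divided by median-of-ratios size factors (0.896 to 1.25), since 5 small RNAs took up to 38.2% of TPM. limma 3.58.1 in R 4.3.3 (trend) was fitted to log2(value + 0.1) over genes with a mean of at least 0.5. The fit was also run on simulated data with independent noise per gene and library. That simulation held no shared embryos or library-wide shifts and so cannot show how the fit bears them. Level was tested over 12 libraries with genotype as a covariate (adjusted p under 0.05), and genotype at each level by the study's threshold (log2 fold change beyond 0.5, unadjusted p under 0.05). The study gives 3 animals per genotype and describes its read counts as those of individual animals. Brachial and lumbar libraries may thus share embryos and were fitted as independent, but by Y-linked genes and *Xist* 2 of 3 brachial and 1 of 3 lumbar heterozygote libraries were male, so these did not all come from the same 3 animals. Named genes are the members, *Isl2*, genes overlapping or within 5 kb of a member, the 3 genes most like each called member, and up to 4 of smallest p per list. Genes named beyond this rule are marked as such. The members, lists and tests were chosen with earlier results of these data known. Intervals are 95% limma intervals. Depth limits low genes such as *Hoxb5* and *Hoxa4* more than the others. Homeobox sequence of 2 of the genes is not reported here.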

Additional observations from a re-analysis of the deposited data

Results flagged for a closer look

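In 1 of 14 sets of 6 libraries checked (7 genes at each level), 1 library stood apart from the other 5 by Dixon's test. It was *Hoxb5* in lumbar heterozygote replicate 3, at 6.56 TPM against 8.63 to 9.70 TPM in the other lumbar libraries, a gap of 0.660 of the whole range. Chance alone gives such a gap in about 1 of 20 sets. Without this library the lumbar genotype difference of *Hoxb5* was -0.095 in place of 0.08. The library held 6.09 Gb of aligned sequence and the fewest genes above 0 (22983), and their part in the low value was not tested.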

How the results depend on the processing

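The level differences of *Hoxc4*, *Hoxd4*, *Hoxa5* and *Hoxc5* kept direction and call in 12 of 12 alternatives and in 12 of 12 fits that left out 1 library, and *Hoxa4* lost its call without a filter (adjusted p = 0.0639), in KO alone and in 10 of 12 fits that left out 1 library. Leaving out 1 library gave 1 to 2 members higher at the lumbar level, 0 to 1 higher in brachial KO and 0 to 1 higher in lumbar KO. With TPM as deposited, 1 member (*Hoxb5*, 0.64) passed in brachial KO, the median of all genes moved to -0.13 (level), with 646 higher and 2214 lower calls in place of 1488 and 1607, and to 0.16 (brachial KO), with 1211 higher and 47 lower in place of 371 and 146. With TPM as deposited *Hoxb4* reversed between levels (-0.025), as it did in heterozygotes alone (-0.086), brachial KO gave 0.16 for *Hoxa4*, 0.14 for *Hoxb4*, 0.13 for *Hoxc4* and 0.067 for *Hoxc5*, and the difference of genotype effects gave -0.0057 for *Hoxc4* and -0.13 for *Hoxd4*. Leaving out 1 library turned genotype differences of *Hoxa4* (-0.11 to 0.13), *Hoxb4* (-0.14 to 0.078) and *Hoxa5* (-0.0019 to 0.13) in brachial, *Hoxa5* (-0.078 to 0.14) and *Hoxb5* (-0.095 to 0.18) in lumbar, and *Hoxc4* (-0.026 to 0.060) and *Hoxa5* (-0.00068 to 0.096) in both levels, and the difference of genotype effects of *Hoxa5* (-0.14 to 0.079) and *Hoxd4* (-0.022 to 0.096). Coverage in place of TPM moved group 4 shares to 9.40% (*Hoxa4*), 14.0% (*Hoxb4*), 27.4% (*Hoxc4*) and 49.2% (*Hoxd4*) in brachial and to 11.1% (*Hoxc4*) and 69.5% (*Hoxd4*) in lumbar libraries. The cause of these changes was not tested.

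Replicate numbers were taken as names, since same-numbered libraries correlated above 0.1 in only 2 of 3 pairs of levels in heterozygotes and 0 of 3 in KO and in 1 of 3 pairs of genotypes at each level, not every library correlated best with its own number, and sex-linked genes differed between the 2 levels in 3 of 6 same-numbered pairs. With the replicate block, members called stayed at 4 lower and 1 higher between levels and at 0 between genotypes, and calls over all genes went from 1607 lower and 1488 higher to 1295 and 1032 between levels.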
